A study of Mus musculus with 64 samples.

Results

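Liver mRNA of female mice that carry human AS3MT and BORCS7 in place of mouse As3mt and Borcs7 (HUMF, 3 libraries) was compared with liver mRNA of wild type females (WTF, 3 libraries). These 6 libraries, out of 64 in the series, were chosen by tissue, sex and genotype as the labels give them. The comparison and the gene lists below were chosen with earlier results of these data known. All animals were of the 129S6/SvEvTac strain and all, wild type included, had drunk water with 400 ppb inorganic arsenic for 4 weeks. Every difference below is therefore between exposed females, with no unexposed animal in it. The labels give no genotype outside the replaced genes, so other genetic differences between the groups cannot be told apart from the replacement. The labels name HUMF replicates 1 and 3 and WTF replicate 1 as made after ribosomal depletion, and HUMF replicate 2 and WTF replicates 2 and 3 as made after polyA enrichment, so the preparations are unevenly divided between the genotypes. The labels describe the humanized animals as expressing the human ortholog of AS3MT and name neither the promoter that drives it nor the number of founder lines. The 6 male liver libraries, 3 of humanized (HUMM) and 3 of wild type (WTM) animals under the same exposure, entered the same model, which let the female difference be set against the male one.

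As3mt encodes the methyltransferase that turns inorganic arsenic into methylated and dimethylated forms, with S-adenosylmethionine as the methyl donor. The liver is the main site of this reaction, and the methylated products leave the body mostly in urine. Borcs7, its neighbour on mouse chromosome 19, encodes a subunit of the BORC complex, which positions lysosomes in the cell. The female liver also differs from the male liver in many enzymes of steroid, drug and lipid metabolism, since growth hormone reaches it in a different rhythm in the sexes.

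Values are the authors' normalized signal per gene, on a scale where the commonest low value in a female library was 0.854 to 1.06. The signal of a female library summed to 80136000 to 87795100, over 18845 to 19559 genes above 0. Reads per gene could not be recovered from these values, so no counting interval is given. The labelled preparation left no measurable mark: of 15180 genes tested for it by limma, 0 were called and 659 had an unadjusted p under 0.05 (4.34%). The summed signal of replication-dependent histone genes, whose mRNAs lack a polyA tail, was 11718 to 28897 in the 6 depleted liver libraries and 13112 to 18763 in the 6 polyA ones. For short RNAs without a polyA tail the sums were 71.5 to 167 and 69.0 to 145. Among female libraries, HUMF replicate 1 stood apart in markers of adrenal and ovary steroid cells (summed signal 1040 against 60.1 to 338 in the other 5) and HUMF replicate 2 in neutrophil markers (1809 against 136 to 531). Hepatocyte markers summed to 8414020 to 10954500 in HUMF and 9060300 to 12936200 in WTF. The labels number the replicates of a group but do not tie them to litters, cages or days, so the p-values measure the spread between these samples. In whole liver, fewer cells of a type and less RNA per cell cannot be told apart.

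The female livers lost both mouse genes of the replaced region, and 1 gene elsewhere in the genome was called higher. A gene was called at a Benjamini-Hochberg adjusted limma p under 0.05, on log2 of the signal plus 1, with the preparation as a covariate. Called were 3 of 15180 genes (0.0198%), 1 higher (0.00659%) and 2 lower (0.0132%), beside 5 (0.0329%) in males. Below an unadjusted p of 0.05 were 859 genes (5.66%), 385 higher (2.54%) and 474 lower (3.12%). The HUMF and WTF values did not overlap at 2135 genes (14.1%), 1116 of them higher (7.35%) and 1019 lower (6.71%). The median log2 difference of all tested genes was −0.0087. The share at an unadjusted p under 0.05 turned on single libraries. Without WTF replicates 1, 2 and 3 it was 11.1%, 3.29% and 3.5%, and without HUMF replicates 1, 2 and 3 it was 9.84%, 2.64% and 3.73%.

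As3mt (ENSMUSG00000003559) had a signal of 6105, 5827 and 6111 in WTF replicates 1 to 3 and 5.98, 5.13 and 4.85 in HUMF replicates 1 to 3, the order in which library values are given throughout. No WTF value lay below 5827 and no HUMF value above 5.98. The log2 difference was −9.91 (SE 0.42), limma adjusted p = 1.84e-06. Borcs7 (ENSMUSG00000062376) stood at 688, 837 and 825 in WTF and 11.0, 8.54 and 14.5 in HUMF, a log2 difference of −6.02 (SE 0.26) with limma adjusted p = 1.84e-06. A low signal for both mouse genes thus remained in each HUMF library. Rows for the human genes were not analysed here.

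Klk1b22 (ENSMUSG00000060177), a glandular kallikrein of a family of near-identical proteases on chromosome 7, was listed at 0 in all 3 WTF livers and at 279, 241 and 207 in the HUMF livers (limma adjusted p = 0.0255). In males the order was the other way round. Its signal was 211, 168 and 89.6 in WTM and 16.6, 26.8 and 0 in HUMM, and this was the 1 gene of 15180 (0.00659%) whose genotype difference itself differed between the sexes (limma adjusted p = 0.0157). In gonadal fat of females of the same genotypes the signal was 232, 206 and 0 in WTF and 629, 293 and 449 in HUMF, so that the WTF group held both high values and a 0. Reads of this gene could have been split among its near copies, and its values are uncertain to that extent. The female call was lost without any 1 of the 6 female libraries, WTM replicates 1 or 2, or HUMM replicate 1, and without the trend, with limma adjusted p up to 0.476. For the difference between the sexes no gene was called without the trend or without WTF replicate 2, HUMF replicates 1 or 2, or HUMM replicate 1.

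Around the replaced pair, 3 further genes stood apart, all on the Borcs7 side. Within 12 places of As3mt in the RefSeq gene order, 17 genes were tested. Beyond As3mt and Borcs7, those with an unadjusted limma p under 0.05 were Gm6967, Cyp17a1 and Sfxn2. Gm6967 is a pseudogene in RefSeq and the next gene beyond Borcs7. It stood at 7.18, 26.9 and 23.1 in WTF and 431, 279 and 389 in HUMF, a log2 difference of 4.32 (SE 0.79), limma adjusted p = 0.39. The same was seen in males, at 7.93, 3.64 and 0 in WTM and 315.5, 138 and 306 in HUMM, and in female fat, at 0, 0 and 1.93 in WTF and 47.1, 67.7 and 91.8 in HUMF. In none of these 3 comparisons did a humanized library fall into the wild type range.

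Cyp17a1, the steroid 17-alpha-hydroxylase, lies 4 places from As3mt. It stood at 18975, 23374 and 27439 in WTF and 2965, 2266 and 3479.8 in HUMF, a log2 difference of −3.12 (SE 0.45), limma adjusted p = 0.104. Every HUMF liver was far below the lowest WTF liver. The male livers, at 1918, 1154 and 407 in WTM and 1982, 1186 and 1728 in HUMM, overlapped, and the difference of the differences was 3.73 on the log2 scale (limma adjusted p = 0.282). In female fat the direction was opposite, with 1.05, 4.69 and 11.6 in WTF and 238, 373 and 402 in HUMF. The humanized females thus had less Cyp17a1 signal than wild type females in liver and more in fat. Adrenal and ovary steroid cells also use Cyp17a1. In liver, the summed signal of 11 other genes of these cells was 338, 60.1 and 138 in WTF and 1040, 190 and 285 in HUMF. Only 3 of the 11 passed the filter, and the part of such cells in the Cyp17a1 values of liver or fat was not tested.

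Sfxn2, a mitochondrial sideroflexin 7 places from As3mt, stood at 4667, 4863 and 5201 in WTF and 1917, 1888 and 1875 in HUMF. The HUMF values lay close together and the groups were far apart. The log2 difference was −1.40 (SE 0.18), limma adjusted p = 0.0506, just past the threshold, and it ranged from 0.00318 to 0.476 over the alternatives. Males stood at 2737, 1707 and 2845 in WTM and 1500.1, 1400.1 and 1290.1 in HUMM, also without overlap (log2 difference −0.80).

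The gene next to Sfxn2, Wbp1l, which encodes a WW domain binding protein, stood at 40601, 45804 and 44923 in WTF and 39392, 39527 and 30053 in HUMF, a small gap without overlap (log2 difference −0.27 (SE 0.18)). On the other side of As3mt, its direct neighbour Cnnm2, a gene of magnesium handling, overlapped between the groups at 582, 1030.1 and 827 and 816, 553 and 512. So did Nt5c2, a cytosolic nucleotidase, at 1061, 1104 and 1169 in WTF and 1151, 1410.0 and 1124 in HUMF. Their log2 differences were −0.34 (SE 0.25) and 0.19 (SE 0.16).

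**Figure D1:**
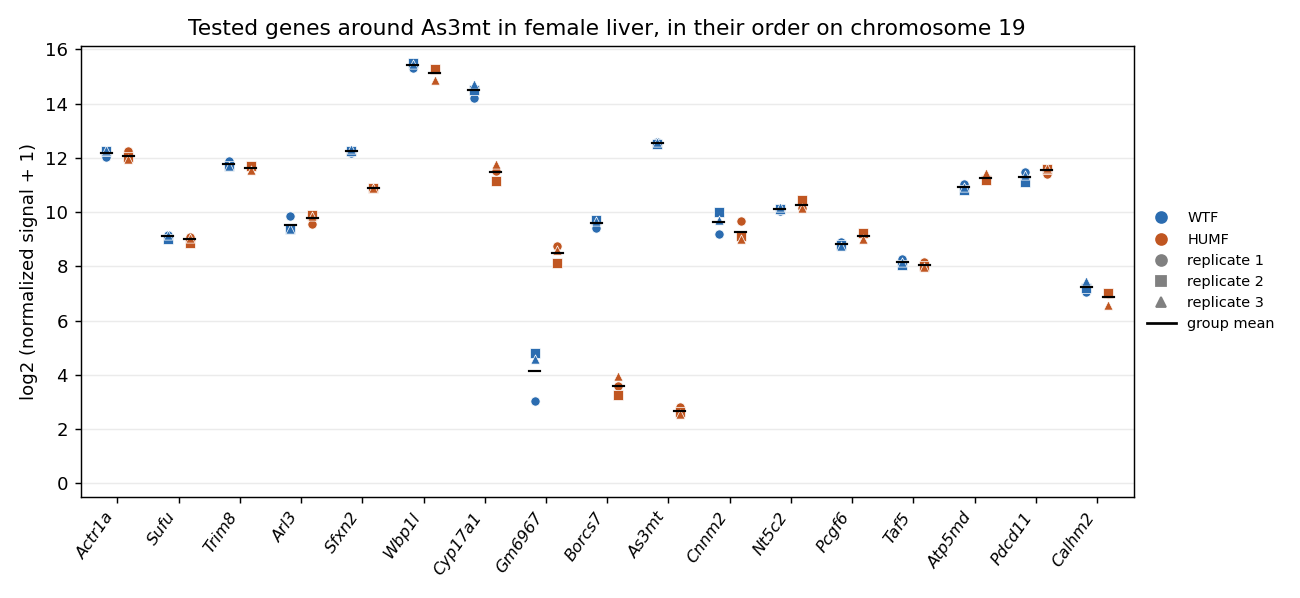
Normalized signal, as log2 of the signal plus 1 on the vertical axis, of the 17 tested genes within 12 places of As3mt in female liver, with 1 point per library, the marker giving the replicate number and the bar the mean of the 3 logs. As3mt, Borcs7, Cyp17a1 and Sfxn2 lie lower in HUMF and Gm6967 higher, while from Cnnm2 onward the group means lie close together.

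The 10 smallest p-values in each direction were taken over all tested genes, the locus included. Only genes with a mean signal of at least 100 and without overlap of HUMF and WTF values were eligible. That choice fixes their direction. Among the genes taken were As3mt, Borcs7, Sfxn2, Cyp17a1 and Gm6967 of the locus. Apart from the 3 called genes, the limma adjusted p ran from 0.0506, that of Sfxn2, upward. Beyond the locus it ran from 0.222, that of Chd9, upward. The most uneven of the lower ones was Chd9, a chromodomain helicase that remodels chromatin, on chromosome 8. It stood at 22141, 17898 and 67118 in WTF and 533, 395 and 513 in HUMF, a log2 difference of −6.46 (SE 1.05) with limma adjusted p = 0.222. WTF replicate 3 was well above the other WTF livers, and the lowest WTF liver was far above the highest HUMF liver. Males were spread, at 25058, 21306 and 2862 in WTM and 12982, 10085 and 495 in HUMM. In female fat Chd9 stood at 5207, 8762 and 10497 in WTF and 2041, 1936 and 1722 in HUMF, again without overlap.

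Rbm20, a splicing regulator best known from heart muscle and here on chromosome 19, stood at 256, 333 and 291.7 in WTF and 59.7, 43.8 and 84.0 in HUMF (log2 difference −2.58 (SE 0.47)). The long non-coding RNA 2610507I01Rik stood at 179, 199 and 359 in WTF and 8.91, 5.12 and 0.965 in HUMF (log2 difference −5.26 (SE 0.98)). Of the 3 HUMM livers 1 was as low, at 159, 8.98 and 227, against 152, 164 and 188 in WTM. Another long non-coding RNA, Gm42031 on chromosome 8, was lower in both sexes, at 98.1, 65.9 and 171 in WTF and 25.9, 11.1 and 5.81 in HUMF, and at 2430.0, 506 and 242 in WTM and 105, 131 and 37.3 in HUMM. Its log2 differences were −3.37 in females and −3.41 in males. Heyl, a transcriptional repressor downstream of Notch, stood at 204, 188 and 183 in WTF and 60.5, 100.3 and 62.3 in HUMF (log2 difference −1.32 (SE 0.25)). For Sptb, the beta-spectrin of the red cell membrane, the log2 difference was −1.25 (SE 0.26).

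Among the higher genes was Ces1b, a carboxylesterase of a cluster of near copies on chromosome 8. It stood at 15698, 3943 and 3613 in WTF and 32799, 40239 and 40029 in HUMF, a log2 difference of 2.57 (SE 0.49) with limma adjusted p = 0.446. WTF replicate 1 was well above the other WTF livers and still below every HUMF liver. Without that library the adjusted p was 0.000217, and it reached 1 at the other end of the alternatives. Males overlapped at 7826, 12888 and 15213 in WTM and 11575, 15554 and 17194 in HUMM.

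Acp1, a low molecular weight tyrosine phosphatase, stood at 2664, 2578 and 2641 in WTF and 4129.5, 6422 and 4739.8 in HUMF (log2 difference 0.98 (SE 0.19)). Its WTF values lay close together, below every HUMF value. Prex1, an exchange factor for Rac, stood at 541, 685 and 750.2 in WTF and 2224, 1676 and 1289.8 in HUMF (log2 difference 1.62 (SE 0.34)). Ciapin1, which serves iron-sulfur cluster assembly in the cytosol, stood at 2263, 1379.5 and 1194 in WTF and 2916, 3444 and 3990.5 in HUMF (log2 difference 1.12 (SE 0.26)). The deubiquitinase Usp38 was at 1862, 1696 and 1690.1 in WTF and 2678, 2932 and 2565 in HUMF, while the males ran the other way, at 2875, 2686 and 2893 in WTM and 2320.4, 1730.0 and 2558 in HUMM. Of the remaining higher genes, Cyp4f14, a fatty acid omega-hydroxylase, had a log2 difference of 0.62 (SE 0.16), Col20a1, a collagen, one of 1.89 (SE 0.45), and Niban3 one of 2.10 (SE 0.54). Niban3 was also higher without overlap in female fat, at 184, 212 and 139 in WTF and 381, 459.6 and 305 in HUMF.

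Besides Klk1b22, 1 gene was listed at 0 in all WTF livers and at 10 or more in all HUMF livers, and none the other way round. This was Slc1a1, a glutamate transporter on chromosome 19, at 98.5, 12.2 and 23.5 in HUMF (limma adjusted p = 0.39). All 6 male livers had some signal, 35.5, 12.7 and 44.4 in WTM and 31.4, 15.2 and 101 in HUMM, and so did all female fat libraries. Zfp125, a zinc finger gene named here after its values were seen, had a similar form. It stood at 0.419, 1.55 and 0 in WTF and 105, 203 and 127 in HUMF, while the males held high and low values in both groups, at 256, 294 and 2.83 in WTM and 3.02, 5.45 and 336 in HUMM.

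**Figure D2:**
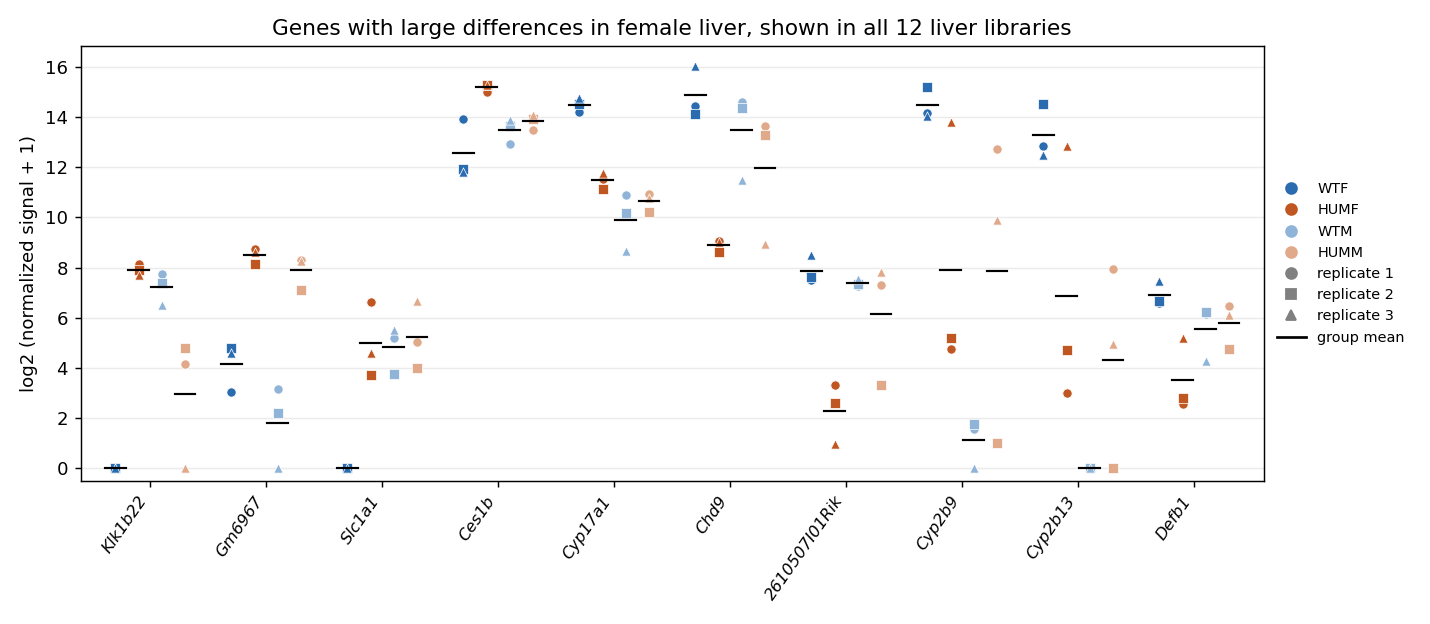
Normalized signal, as log2 of the signal plus 1, of 10 genes with large female differences in all 12 liver libraries, with 1 point per library, colours for the 4 groups and a bar at the mean of the logs. Klk1b22 is at 0 in WTF and high in HUMF and WTM, Gm6967 is higher in both humanized groups, and Cyp2b9 and Cyp2b13 split the HUMF group into 1 high and 2 low livers.

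The genes with the smallest p-values lay on 2 chromosomes more often than those chromosomes' share of genes. This breakdown was chosen after the values were seen, and no test was made of it. Chromosomes 8 and 19 together held 9.00% of the tested genes that could be placed (14451 of 15180), and 12 of the 20 genes with the smallest p and 24 of the first 50. Of those 12, 8 were on chromosome 19, among them the replaced As3mt and Borcs7 and the nearby Sfxn2, Cyp17a1 and Gm6967. Below an unadjusted limma p of 0.05 were 80 of 783 genes on chromosome 8 (10.2%) and 52 of 518 on chromosome 19 (10%), against 5.66% of all tested genes. On the other 18 chromosomes the share was 3.88% to 7.41%. Values that did not overlap were found at 20.7% and 20.3% of genes on chromosomes 8 and 19 and at 11% to 16.9% on the others. Both directions were present, with 29 higher and 51 lower on chromosome 8 and 22 higher and 30 lower on chromosome 19.

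The same chromosomes did not stand out in males. There the share below an unadjusted p of 0.05 was 7.02% on chromosome 8 and 7.72% on chromosome 19, within the range of 4.58% to 9.13% over all chromosomes. In female fat, where overlap alone was counted, chromosome 8 had the highest share without overlap, 15.9% against 8.84% to 13.5% elsewhere, and chromosome 19 had 9.86%. Over the alternatives chromosome 8 or 19 kept the highest share in each, but without HUMF replicate 1 chromosome 8 (12.5%) was passed by the X chromosome (13.8%), and without HUMF replicate 3 chromosome 19 (6.95%) by chromosome 7 (7%).

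**Figure D3:**
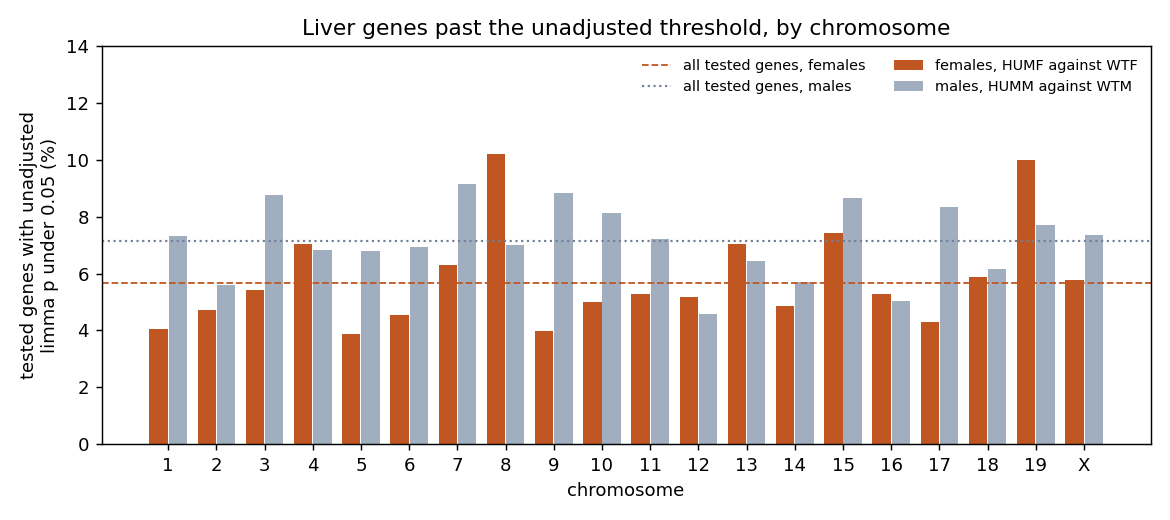
Percentage of tested liver genes with an unadjusted limma p under 0.05 on each chromosome, in females (HUMF against WTF) and in males (HUMM against WTM), with the share over all tested genes as lines. The female bars for chromosomes 8 and 19 stand at 10.2% and 10% above a line at 5.66%, and the male bars there stand near their line at 7.13%.

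Along chromosome 8 the genes were uneven. In successive windows of 50 tested genes, 15 genes from Eif4ebp1 to Klkb1 had an unadjusted p under 0.05, 12 of them lower. From Cbr4 to Crtc1 there were 12, of which 10 were lower, and from Klhl26 to B3gnt3 there were 10, of which 2 were lower. In the first 3 windows, from Insr to Gm45470, there were 1, 2 and 1. In the same 3 dense windows the males had 0, 5 and 2. Chromosome 19 had the most, 9 of 50, in the window from Sfxn2 to Ablim1, which holds As3mt, and 8 in each of the windows from Slc35g1 to Loxl4 and from Pyroxd2 to Arl3. The males had 9, 6 and 4 in these windows, in the same order, so the window with As3mt was as dense in males.

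Further genes of these chromosomes with an unadjusted limma p under 0.05 are given here. Defb1, an epithelial beta-defensin on chromosome 8, stood at 96.6, 99.7 and 177 in WTF and 4.86, 5.97 and 35.3 in HUMF (log2 difference −3.49 (SE 0.81)). F11, coagulation factor XI, stood at 9070.2, 5292 and 6767 in WTF and 5710.2, 3738 and 4049 in HUMF, with WTF replicate 2 inside the HUMF range. The ciliary gene Rpgrip1l stood at 188, 177 and 278 in WTF and 92.0, 91.3 and 78.5 in HUMF. Scoc, a regulator of autophagy, was lower in liver, 597, 706 and 603 in WTF and 425, 294 and 441 in HUMF, and in fat, 3198, 3773 and 4706 in WTF and 2057, 2120.3 and 1819 in HUMF. On chromosome 19, Ide, the insulin-degrading enzyme, stood at 6661, 7193 and 9710.2 in WTF and 4459.6, 3069.8 and 4541 in HUMF (log2 difference −1.04 (SE 0.23)). The cytochrome Cyp2c67 had a log2 difference of −0.92 (SE 0.22), with reads that near copies could share. The genes of these 2 paragraphs were named after their values were seen.

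**Figure D4:**
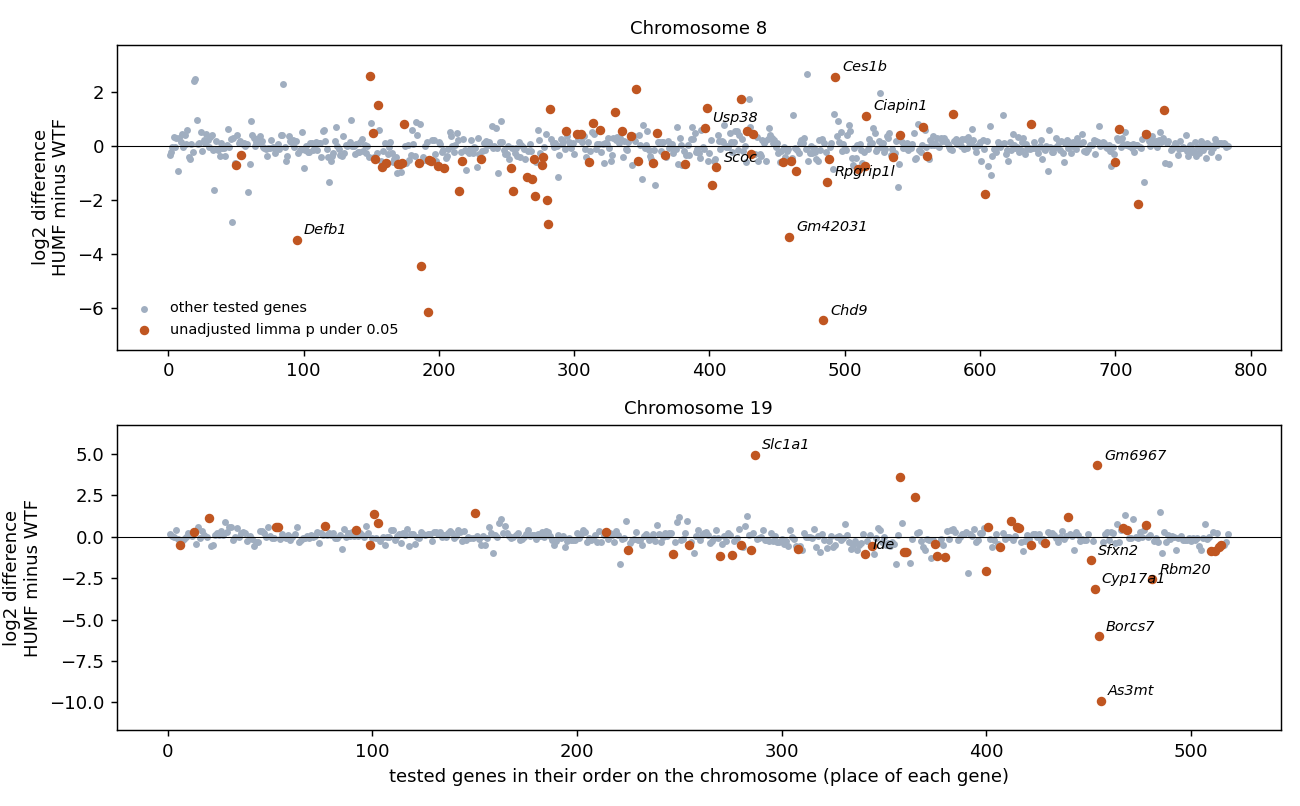
Log2 difference HUMF minus WTF of each tested gene of chromosomes 8 and 19, at its place in the gene order, with genes of unadjusted limma p under 0.05 in colour and the 8 with the smallest p on each chromosome named. On chromosome 8 the coloured points crowd in the 15 of 50 genes from Eif4ebp1 to Klkb1 and are spread over much of the rest, and on chromosome 19 the 4 most negative named points are As3mt, Borcs7, Cyp17a1 and Rbm20.

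Most cholesterol synthesis enzymes had lower mean signal in the humanized females, though none was called singly. The pathway runs from acetyl-CoA through mevalonate, farnesyl diphosphate and squalene to lanosterol and cholesterol, and SREBP2, encoded by Srebf2, switches its genes on together when sterols are scarce. The list was chosen with earlier results of these data known. All 18 enzymes counted here were tested, and 17 had a log2 difference below 0, against 50.9% of all tested genes. Above 0 were 49.1% of all tested genes and 1 of the enzymes. The median of the 18 was −1.10, against −0.0087 for all genes. Below an unadjusted limma p of 0.05 and lower were 13 (all genes, 3.12%), values did not overlap at 14, all lower (6.71%), and none was called over all genes. The 13 became 4 without HUMF replicate 2, the liver with the lowest signal in most of these genes, and were at most 14 under the alternatives. The median ranged from −1.42, without WTF replicate 1, to −0.88, without WTF replicate 2.

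In the mevalonate steps, Hmgcs1, which condenses the first intermediate, stood at 15512, 29954 and 15278 in WTF and 5979, 5924 and 4812 in HUMF. Its log2 difference was −1.90 (SE 0.64), limma adjusted p = 0.786, a value shared by many genes here. Mvk, the mevalonate kinase, stood at 2512, 2825 and 2443 in WTF and 1769, 958 and 1333 in HUMF (log2 difference −1.09 (SE 0.33)). Idi1, the isomerase that makes dimethylallyl diphosphate, was at 9318, 18049.9 and 14590.1 in WTF and 6052, 2989 and 6873 in HUMF (log2 difference −1.62 (SE 0.51)).

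At the squalene and lanosterol steps the differences were as wide. Sqle, the squalene epoxidase, stood at 5029, 10538 and 9858 in WTF and 2615, 904 and 1845 in HUMF, and its log2 difference of −2.64 (SE 0.74) was the most negative of the 18. Within the depleted libraries that difference was −1.19 and within the polyA libraries −3.49. Lss, which closes the sterol rings, stood at 5594, 8614 and 5373 in WTF and 3241, 2596 and 3408 in HUMF (log2 difference −1.09 (SE 0.35)). Msmo1, a sterol methyl oxidase, stood at 7129, 11182 and 9736 in WTF and 5410.5, 1452 and 4877 in HUMF, where HUMF replicate 2 was far below the other HUMF livers. Hsd17b7, a ketoreductase of the same stretch, had the smallest p of the list, at 6417, 6689 and 6674 in WTF and 4868, 2987 and 5379 in HUMF. Dhcr7, the last reductase, was at 6625, 11201 and 8002 in WTF and 5074, 3303 and 4120.4 in HUMF (log2 difference −1.11 (SE 0.32)). The 1 member above 0 was the sterol isomerase Ebp, at 14561, 15313 and 13876 in WTF and 14524, 15163 and 16289.6 in HUMF (log2 difference 0.053 (SE 0.15)).

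The remaining 9 enzymes had log2 differences of −1.34 (Mvd), −1.33 (Nsdhl), −1.22 (Fdps), −1.18 (Cyp51), −0.78 (Acat2), −0.75 (Fdft1), −0.54 (Sc5d), −0.33 (Pmvk) and −0.21 (Tm7sf2), all below 0. By preparation, the median of the 18 enzymes was −0.44 with 14 below 0 in the depleted libraries and −1.49 with 17 below 0 in the polyA libraries, each with 1 library on one side.

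In males all 18 of these enzymes had a log2 difference above 0, with a median of 0.76. The female and male groups share no library. The male difference exceeded the female one at 18 of 18 enzymes, by a median of 1.69, and at 15 of them with an unadjusted limma p under 0.05 for the difference itself, against 8.18% of all tested genes in either direction. None of these passed adjustment. Genes switched on together are not independent, and the count of 15 was not repeated with single libraries left out. Summed over the 18 enzymes, WTM replicate 2 stood at 83646 against 127248 and 194508 in the other WTM livers. HUMF replicate 2 stood at 84037 against 114028 and 114223 in the other HUMF livers. For Hmgcs1 the males stood at 8863, 2924 and 17099 in WTM and 19712, 40142 and 9523 in HUMM, and for Sqle at 8670.0, 835 and 5726 and 7379.7, 11054 and 2562, where WTM replicate 2 was the low liver in both genes.

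**Figure D5:**
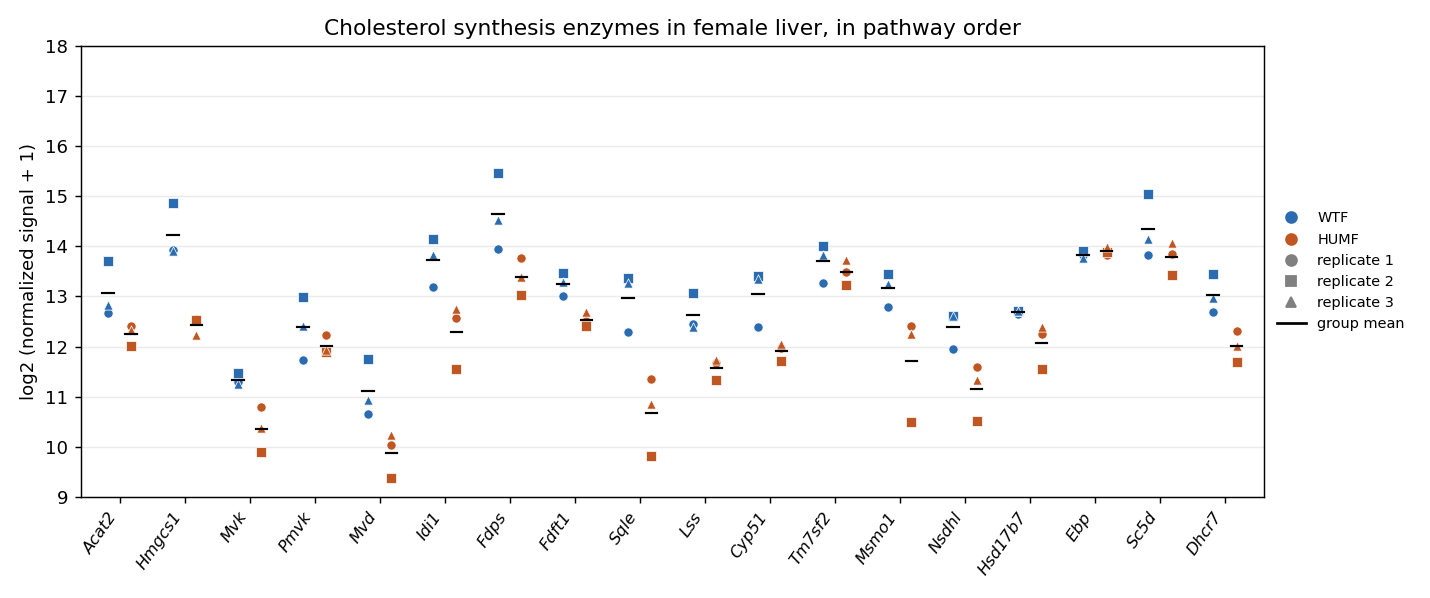
Normalized signal of 18 cholesterol synthesis enzymes in female liver in pathway order, as log2 of the signal plus 1 on an axis that starts at 9, with 1 point per library and a bar at the mean of the 3 logs. In most enzymes the square of WTF replicate 2 is the highest point and the square of HUMF replicate 2 the lowest, and the groups do not overlap at 14 of the 18.

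Promoters of these enzymes are shown because the genes were lower together and SREBP2 acts on them. SREBP2 binds sterol regulatory elements, often beside CCAAT boxes bound by NF-Y. Of the 18 enzymes, 15 had a promoter in the RefSeq table (GRCm38.p6), covering 250 bases before to 50 after the gene start. Each was searched on both strands for an element of the form TCACNCCAC and for CCAAT, and no match of one shared bases with the other. Hmgcs1 alone held TCACNCCAC, which is in 1.22% of 27025 promoters. Sterol regulatory elements of another form, or outside these bases, were not searched for, so the other promoters cannot be said to lack them. CCAAT was in 13 of the 15 (86.7%), against 37.9% of all promoters and 38.7% of the 11221 promoters of tested genes. Below are Hmgcs1, with both motifs, Hsd17b7, with the smallest p of those with a promoter, Dhcr7, lower with neither motif, and Ebp, with CCAAT and no lower signal. Capitals mark the matches, and each is written 5′ to 3′ on the gene's strand.
Hmgcs1 promoter, chr13:119690101-119690400, plus strand: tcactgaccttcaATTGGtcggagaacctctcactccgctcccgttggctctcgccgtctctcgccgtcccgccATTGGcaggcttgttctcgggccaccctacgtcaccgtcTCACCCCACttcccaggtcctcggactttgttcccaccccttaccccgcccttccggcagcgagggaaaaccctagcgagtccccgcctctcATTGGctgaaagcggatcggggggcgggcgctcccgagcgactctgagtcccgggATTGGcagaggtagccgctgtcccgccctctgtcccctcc
Hsd17b7 promoter, chr1:169969156-169969455, minus strand: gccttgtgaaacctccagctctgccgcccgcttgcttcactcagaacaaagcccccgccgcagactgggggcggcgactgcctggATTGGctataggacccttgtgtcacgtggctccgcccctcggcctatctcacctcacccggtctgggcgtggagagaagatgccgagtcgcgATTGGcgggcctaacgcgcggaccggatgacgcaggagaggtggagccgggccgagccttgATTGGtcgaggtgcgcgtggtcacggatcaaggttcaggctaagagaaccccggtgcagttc
Dhcr7 promoter, chr7:143822917-143823216, plus strand: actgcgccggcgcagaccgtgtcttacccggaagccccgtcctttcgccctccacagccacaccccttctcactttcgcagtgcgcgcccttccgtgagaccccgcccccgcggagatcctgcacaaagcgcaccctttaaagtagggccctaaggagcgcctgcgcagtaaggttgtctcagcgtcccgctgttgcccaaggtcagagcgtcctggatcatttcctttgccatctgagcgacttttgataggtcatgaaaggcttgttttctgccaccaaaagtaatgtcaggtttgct
Ebp promoter, chrX:8193463-8193762, minus strand: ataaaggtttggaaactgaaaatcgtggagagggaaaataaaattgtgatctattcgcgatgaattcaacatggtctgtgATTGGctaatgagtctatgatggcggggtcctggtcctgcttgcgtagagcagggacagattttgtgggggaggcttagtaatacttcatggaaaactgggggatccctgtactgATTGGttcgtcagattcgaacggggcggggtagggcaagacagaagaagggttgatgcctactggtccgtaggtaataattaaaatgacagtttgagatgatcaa
CCAAT was thus present both in promoters of enzymes that were lower and in that of Ebp, and absent from that of Dhcr7.

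Genes that control the pathway differed less. Of 15 genes of SREBP2 control and sterol uptake, 13 had a log2 difference below 0, with a median of −0.30, and 2 were lower at an unadjusted p under 0.05 (all genes, 3.12%). Srebf2 itself stood at 7398, 7569 and 9027 in WTF and 6110.1, 5302 and 5233 in HUMF, without overlap (log2 difference −0.59 (SE 0.16), limma adjusted p = 0.786). Insig1, a sterol-regulated brake on SREBP, stood at 22720.1, 35621 and 17609.8 in WTF and 17529.5, 14406 and 14866 in HUMF (log2 difference −0.69 (SE 0.32)). Of 12 genes under LXR or of sterol export, 7 were above 0 and none had an unadjusted p under 0.05, with a median of 0.080.

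Fatty acid and triglyceride synthesis genes lay mostly below wild type too. Of 22 genes, 20 had a log2 difference below 0 (median −0.43), 4 of them at an unadjusted limma p under 0.05 (all genes, 3.12%), and 1 gene was higher at that p (2.54%), the acyltransferase Dgat1. By preparation, the median of the 22 was −0.11 in the depleted libraries, with 14 below 0. In the polyA libraries it was −0.91, with 18 below 0. Each of these had 1 library on one side, and 12 of the 22 genes kept the sign of the fit in both. Pnpla3, a lipid droplet acyltransferase and lipase, stood at 944, 2699.8 and 791 in WTF and 466, 358 and 307 in HUMF (log2 difference −1.60 (SE 0.52)). In males it stood at 19.6, 36.4 and 87.7 in WTM and 285, 271 and 277 in HUMM, the other way round and also without overlap. Elovl5, a fatty acid elongase, stood at 46806, 62398 and 56697 in WTF and 44306, 34625 and 41448 in HUMF (log2 difference −0.47 (SE 0.19)). Acly, which makes cytosolic acetyl-CoA, stood at 23116, 75476 and 29459.5 in WTF and 22258, 8649 and 17137 in HUMF, where WTF replicate 2 was far above the rest. Acaca, the carboxylase that makes malonyl-CoA, overlapped at 9505, 31007 and 22834 in WTF and 13124, 4625 and 10222 in HUMF. The 4 lower genes were 0 without HUMF replicate 2, 2 without WTF replicates 2 or 3 or HUMM replicate 1, and 7 without WTF replicate 1. The male minus female difference was above 0 at 18 of the 22, and at 12 with an unadjusted p under 0.05, against 8.18% of all genes in either direction. None of the 12 passed adjustment, and this count was not repeated with single libraries left out.

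Fatty acid oxidation and PPARA targets were above 0 at 19 of 26 genes, with a median of 0.19 and 1 gene higher at an unadjusted p under 0.05 (all genes, 2.54%). That gene was Acaa1b, a peroxisomal thiolase, at 123953, 94524 and 84908 in WTF and 109687, 203461 and 198688 in HUMF, with HUMF replicate 1 inside the WTF range. In bile acid synthesis and transport, 12 of 18 genes were above 0, and Amacr, a racemase of bile acid intermediates, stood at 11586, 11020.5 and 15136 in WTF and 15611, 17119 and 20252 in HUMF (log2 difference 0.50 (SE 0.16)).

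The genes closest to arsenic handling differed little. Of 11 tested genes of arsenic uptake, reduction and efflux, 6 were above and 5 below 0, with a median of 0.030, and none had an unadjusted p under 0.05. The transporter Abcc2, which exports arsenic conjugates into bile, stood at 27089.7, 32055 and 30196 in WTF and 27044, 23591 and 28085 in HUMF (log2 difference −0.15 (SE 0.17)). None of 8 metallothionein and zinc genes passed that p either. Mt2, a metal-binding metallothionein, was at 5777, 1870.0 and 30219 in WTF and 7505, 19474 and 17502 in HUMF, a spread within WTF wider than the difference between groups. Of 23 tested NRF2 and glutathione genes, 10 were above and 13 below 0 (median −0.034). In that list Pgd, a dehydrogenase of the pentose phosphate pathway, stood at 4324, 8595 and 5136 in WTF and 3534, 2536 and 2902 in HUMF (log2 difference −0.88 (SE 0.28)). Gsta4, a glutathione transferase for lipid aldehydes, stood at 3209, 3685 and 2536 in WTF and 4312, 6336 and 4411 in HUMF (log2 difference 0.73 (SE 0.32)). Of 21 genes of the methionine and one-carbon cycle, which supplies the methyl donor, 9 were above and 12 below 0 (median −0.038). Bhmt, which remethylates homocysteine with betaine, stood at 160982, 223938 and 192084 in WTF and 116380.0, 150806 and 122998 in HUMF, without overlap (log2 difference −0.44 (SE 0.20), limma adjusted p = 0.786).

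Drug-metabolizing and sex-biased genes held some of the widest differences. Of 17 xenobiotic cytochromes and receptors, 10 were above and 7 below 0, and 4 were lower at an unadjusted p under 0.05 (all genes, 3.12%). Cyp2b10, the usual marker of the receptor CAR, stood at 119.6, 266 and 63.3 in WTF and 28.9, 11.1 and 17.4 in HUMF (log2 difference −2.70 (SE 0.82)). It was also lower in males, at 18.7, 161 and 23.1 in WTM and 6.62, 6.99 and 6.22 in HUMM, with a log2 difference of −2.43. Cyp1b1, a cytochrome under the aryl hydrocarbon receptor, stood at 46.9, 65.9 and 65.6 in WTF and 34.2, 19.6 and 26.3 in HUMF. The female-specific Cyp2b9 split the humanized group. It stood at 18264, 37786 and 17059.8 in WTF and at 25.9, 35.8 and 14163 in HUMF, so that HUMF replicates 1 and 2 lay near the floor and replicate 3 just under the lowest WTF liver. Cyp2b13, its neighbour and near copy, did the same at 7281, 23514 and 5725 in WTF and 6.98, 25.6 and 7387 in HUMF, with replicate 3 inside the WTF range. The 2 low livers carry different preparation labels. In males Cyp2b9 stood at 1.97, 2.43 and 0 in WTM and 6858, 0.999 and 944 in HUMM.

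Of 25 female-biased liver genes, 13 were above and 12 below 0 with a median of 0.026, and 3 were lower at an unadjusted p under 0.05 (all genes, 3.12%), namely Cyp17a1, Cyp2b13 and Cyp2b9. Of 25 male-biased genes, 11 were above and 14 below 0 (median −0.071), with 2 in each direction at that p. Mup1, a major urinary protein with many near copies, stood at 79.0, 21.9 and 2.34 in WTF and 299.5, 461 and 60.2 in HUMF, where HUMF replicate 3 lay inside the WTF range. Elovl3, an elongase of the male liver, stood at 138, 109.8 and 60.1 in WTF and 238, 362 and 145 in HUMF, without overlap, and male livers ran the other way, at 19313, 14125 and 7511 in WTM and 2352, 5789.7 and 4062 in HUMM. Among 13 carboxylesterases, 8 were above 0 and 2 were higher at an unadjusted p under 0.05 (all genes, 2.54%), Ces1b and Ces3a, at 31968, 22247 and 22869 in WTF and 37046, 46731 and 37852 in HUMF.

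In the other pathway lists few genes passed an unadjusted p of 0.05. None did among 25 acute phase, 18 circadian clock, 14 p53 target and 22 cell cycle genes, whose medians were −0.12, 0.057, −0.077 and −0.091. Acute phase genes were below 0 at 20 of 25. Of 18 genes of ER stress and the amino acid response, 12 were above 0, and Ppp1r15a, which directs a phosphatase to eIF2-alpha, stood at 968, 980.5 and 971 in WTF and 1163, 1527 and 1334 in HUMF. Sik1, a salt-inducible kinase, was the 1 of 20 glucose and insulin genes below that p, at 2585, 1735 and 3626 in WTF and 3073, 5209 and 3232 in HUMF. Of 12 heat shock genes, 6 were above and 6 below 0, and Hspa4l, a relative of the HSP110 chaperones, stood at 1682, 2439 and 2473 in WTF and 1689.5, 1395 and 1049 in HUMF, with HUMF replicate 1 inside the WTF range. Over all 21 pathway lists, 39 of 375 tested genes had an unadjusted p under 0.05 (10.4%, against 5.66% of all genes). Of the 39, 13 were the cholesterol synthesis enzymes. The lists were chosen with earlier results of these data known, so this share is not a test.

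Some lists of other cell type markers lay mostly above or mostly below 0, in some libraries more than in others. No gene of the cell type lists was called. Of 14 neutrophil genes, 10 were tested and those 10 were above 0, against 49.1% of all tested genes. A gene of low signal can pass the filter through the libraries in which it is high. With a filter at a mean of 50, 2 genes were tested and those 2 were above 0, and without a filter 14 of 14 were. The median of the 10 was 2.30, or 0.66 once HUMF replicate 2 was left out. Summed over the list, the signal was 146, 136 and 531 in WTF and 407, 1809 and 201 in HUMF, so the groups overlapped. Mpo, the myeloperoxidase of neutrophil precursors, stood at 0.875, 0 and 0 in WTF and 76.9, 143 and 11.0 in HUMF, without overlap. Its log2 difference was 5.41, and 2.78 with a pseudocount of 10. S100a8, a calcium-binding protein of mature neutrophils, stood at 16.5, 9.97 and 12.6 in WTF and 31.4, 192 and 24.3 in HUMF. Of 15 B and plasma cell genes, 14 were above 0 (median 0.87, and 0.40 without WTF replicate 2). With a filter at a mean of 50, 5 of them were tested and 4 were above 0 (median 0.39). Their summed signal overlapped, at 1629, 2405 and 3041 in WTF and 2027, 3021 and 2667 in HUMF.

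Of 14 endothelial genes, 13 were below 0. Their median was −0.41, and it came to −0.22 or −0.71 when HUMF replicate 2 or WTF replicate 1 was left out. Their summed signal was 36168, 45429 and 48108 in WTF and 39557, 30247 and 32969 in HUMF. Oit3, a marker of liver sinusoids, stood at 1614, 2685 and 2267 in WTF and 1708, 939 and 1324 in HUMF, and Ptprb, an endothelial phosphatase, at 4298, 5593 and 6062 in WTF and 5068, 3098 and 3476 in HUMF, each with HUMF replicate 1 inside the WTF range. Stellate and fibroblast genes were below 0 at 10 of 12 (median −0.30, and −0.027 without WTF replicate 1), and macrophage genes at 9 of 14 (median −0.12). T and NK cell genes were above 0 at 10 of 14 (median 0.36). Cholangiocyte genes were above 0 at the 5 tested of 8, with an overlapping summed signal of 1874, 1738 and 1297 in WTF and 1431, 2503 and 3430.5 in HUMF. Mesothelium and gallbladder genes were above 0 at 4 of 5 tested, adipocyte genes at 1 of 3, and the 1 skeletal muscle gene tested was below 0.

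Of 9 tested erythroid genes, 6 were above 0 (median 0.40), and 2 were higher at an unadjusted p under 0.05 (all genes, 2.54%). Summed over the list, the signal was 25496, 27852 and 38800 in WTF and 65422, 39989 and 32966 in HUMF, highest in HUMF replicate 1 and overlapping through HUMF replicate 3. Hba-a1, an alpha-globin with a near copy, stood at 6300.3, 6617 and 9555 in WTF and 23307, 15196 and 8339.5 in HUMF, with HUMF replicate 3 inside the WTF range. Car1, the carbonic anhydrase of red cells, stood at 133, 198 and 68.5 in WTF and 232, 319 and 318 in HUMF, without overlap.

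Of 11 adrenal and ovary steroid genes, 3 were tested and 5 were at 0 in every female liver. In HUMF replicate 1, Cyp21a1, an adrenal hydroxylase, stood at 253 against 0.858 to 14.2 in the other female livers. Pancreatic acinar genes were at 0 in every female liver for 11 of 14, including Prss2 and Pnlip. Hepatocyte genes were below 0 at 7 of 10 with a median of −0.16. The part of these markers in the differences of the pathway genes was not tested.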

How the data were processed

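The values are normalized signal per gene in 1 table of 12 liver libraries, as the authors deposited it. The submitters' processing notes name STAR, Salmon, DESeq2, limma and the mm9 build, without saying which made the table. The aligner settings, the strand used in counting and whether reads shared by near copies were kept are not given in the sources used here. Low values were whole multiples of the commonest low value, within 0.01 of it, for 7.46% to 46.9% of values under 50, so reads were not recovered and no count test was run.

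A limma model (version 3.58.1, R 4.3.3, moderated with a mean trend) was applied to log2 of the signal plus 1 for 15180 of 48440 genes, those with a mean of at least 10 over the 12 libraries. The model held 4 groups and the labelled preparation as a covariate, and p-values were adjusted over all genes tested. With 3 libraries against 3, an exact permutation test of single values could not go below 0.1, so none was made. Same-numbered replicates of the groups did not deviate together (correlations −0.087, −0.044 and 0.076), so the numbers were not used as pairs.

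Named genes were As3mt, Borcs7, each called gene, the 10 smallest p in each direction among genes without overlap and with a mean of at least 100, the tested genes within 12 places of As3mt, and up to 4 genes of each of 21 pathway lists and 3 of each of 14 cell type lists by smallest p, with every cholesterol enzyme. Some enzymes of that list are not reported here and enter no count of it. Genes outside this rule are said to be so where they are named. The libraries compared and the gene lists were chosen with earlier results of these data known. RefSeq (GRCm38.p6) gave chromosomes and gene order for 14451 of the tested genes by symbol, and promoter sequences. Its coordinates are of another build than the table's. They were used to order the genes along a chromosome and for the promoters. Fat values come from a separately normalized table and are set beside liver values with no test. Alternatives were other pseudocounts, filters, scalings and covariates and leaving out each library.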

Additional observations from a re-analysis of the deposited data

Results flagged for a closer look

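Klk1b22 was the 1 result for which the effect of genotype differed between the sexes by a test of that difference, the interaction term of the limma model (adjusted p = 0.0157). It was listed at 0 in the 3 WTF livers and at 279, 241 and 207 in the HUMF livers, and stood at 211, 168 and 89.6 in WTM and 16.6, 26.8 and 0 in HUMM. All groups held 3 libraries, too few for a check of single libraries that stand apart within a group.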

How the results depend on the processing

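In female liver, 3 genes were called. The count was 5 with a pseudocount of 10 and 8 with the female libraries alone and no preparation term, and when 1 library was left out it ran from 2, among others without WTF replicate 2, to 6, without WTM replicate 3. As3mt and Borcs7 were called under each of the 21 alternatives with a fit. For the genotype by sex difference, 1 gene was called, 2 without the preparation covariate, 0 without the trend, and 0 to 10 when 1 library was left out. Under the 21 alternatives with a fit, direction reversed for 4 of 89 single genes, each in 1 setting and each near 0. Ebp was −0.010 with the replicate block, and without HUMF replicate 2 Tm7sf2 was 0.011, Arl3 −0.054 and Abcc2 0.036. Comparisons within 1 preparation, with 1 library on one side, are not in this count. In both of them the sign of the fit was kept at 15 of 18 cholesterol synthesis enzymes. It was kept at 12 of 22 fatty acid and triglyceride synthesis genes. When 1 library was left out, Tm7sf2 ran from −0.57 to 0.011, Arl3 from −0.054 to 0.31, and Abcc2 from −0.21 to 0.036. Under the replicate block, which the labels do not ground as a pairing, 4 genes were called in females and 1 for the difference between sexes. Sfxn2 was called under 6 alternatives, Cyp17a1, Gm6967 and 2610507I01Rik under 2 each, and Chd9 with the female libraries alone and no preparation term. Ces1b was called without WTF replicate 1, and Zfp125 under 1 alternative. The cause of these changes was not tested. With 3 libraries a group and reads not recovered, the depth behind single genes is unknown, and low genes rest on the pseudocount.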
